A study of Mus musculus with 39 samples.

Results

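The antioxidant, glutathione and NADPH oxidase genes were followed across mouse left ventricles as a set of 42 genes chosen by symbol, out of 38293 genes in the count table. All 42 were matched to an Ensembl gene ID, and all 42 passed the filter on low counts in every comparison. RNA sequencing covered 39 left ventricles of C57BL6/J mice. In the mutant set, mice homozygous for the Pln R14del allele (genotype Pln R14del/R14del), which removes arginine 14 from phospholamban, the inhibitor of the calcium pump of the sarcoplasmic reticulum, were sampled at 3, 5 and 8 weeks of age (n = 4 each) beside wild type mice at 3 and 5 weeks (n = 4 each) and 8 weeks (n = 3). Heterozygous mice (Pln wt/R14del) were sampled at 8 weeks only (n = 4). In the surgery set, wild type male mice had the left anterior descending coronary artery closed for a time and reopened (ischemia-reperfusion, taken 3 days later at a labelled age of 12 weeks, n = 4), closed for good (infarction, taken 8 weeks later at a labelled age of 20 weeks, n = 4), or sham surgery (2 hearts of 12 weeks and 2 of 20 weeks, pooled as 1 group of 4). Tissue of the operated hearts came from myocardium remote from the infarct, so the values after infarction or reperfusion are not those of the injured zone. The design sets the developing mutant cardiomyopathy beside ischemic heart disease, and the comparisons below show how the redox genes stood in each.

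As background, cells make superoxide in the mitochondrial respiratory chain and by NADPH oxidases, superoxide dismutases turn it into hydrogen peroxide, and catalase, glutathione peroxidases and peroxiredoxins remove the peroxide with electrons that come from NADPH through glutathione reductase or thioredoxin reductase. The transcription factor NRF2 (gene Nfe2l2) is held down by KEAP1, which sends it for degradation. When KEAP1 is oxidised, NRF2 accumulates and binds antioxidant response elements in genes for glutathione synthesis, NADPH supply, heme breakdown and quinone reduction, so its activity is set mostly by protein stability and not by the amount of its mRNA. Cardiomyocytes are rich in mitochondria, while the phagocyte oxidase, metallothioneins and secreted enzymes are also made by other cells of the heart.

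The summed deposited counts ran from 9402904 to 19320791 per library. Levels below are CPM, counts per unit of sequencing depth, scaled with TMM factors (trimmed mean of M values which match the bulk of genes between libraries). Genes encoded in mitochondrial DNA took 8.27% to 15.5% of counts in homozygous and 15.2% to 16.5% in wild type hearts at 8 weeks, 14.6% to 15.9% in homozygous and 19.9% to 21.1% in wild type hearts at 5 weeks, and 18.5% to 21.4% after ischemia-reperfusion, 18.4% to 22.8% after infarction and 23.1% to 26.0% in shams. Homozygous replicate 1 at 8 weeks stood apart from the other 3 homozygous hearts of that age, with a mitochondrial share of 15.5% against 8.27% to 10.6%, and it lay nearer to wild type in several members. Without it, 34 of 34 member calls between homozygous and wild type hearts at 8 weeks remained. Cardiomyocyte markers were the most abundant marker list in every group and were led by Myh6, the main cardiac myosin heavy chain of the adult mouse. These are bulk samples, so more cells of a type and more RNA per cell cannot be told apart.

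Homozygous hearts at 8 weeks carried the broadest change: of the 42 members 29 were higher and 5 lower than in wild type (quasi-likelihood test of edgeR with a Benjamini-Hochberg adjusted p under 0.05, here and below), against 30.8% higher and 29% lower among the 14314 genes tested. The median log2 change was 0.79 over the members and 0.022 over all genes. At 5 weeks 22 members were higher and 6 lower, against 22.3% higher and 21.4% lower among the 13323 genes tested, with medians of 0.21 over the members and -0.001 over all genes. Of the members higher at 5 weeks 95.5% were higher at 8 weeks too, and of those higher at 8 weeks 72.4% were already higher at 5 weeks. Over all genes tested at both ages these shares were 72.6% and 53.5%. At 3 weeks no member passed, as no gene did (0% higher and 0% lower of 13427), and in heterozygous hearts at 8 weeks likewise no member and no gene passed (0% and 0%).

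After ischemia-reperfusion 14 members were higher and 10 lower than in shams, against 16.9% higher and 14.1% lower of the 13611 genes tested, with a median of 0.16 over the members and -0.023 over all genes. After infarction 6 were higher and 3 lower, against 6.62% and 4.77% of the same genes, with a median of -0.037 over the members and 0 over all genes. The 2 surgery comparisons share the 4 shams. With the shams of the same age alone, 16 of the 24 member calls after ischemia-reperfusion and 6 of the 9 after infarction were kept, the 6 being those higher. Against heterozygous hearts, homozygous hearts at 8 weeks had 30 members higher and 6 lower, where 32% and 30% of all genes were called. This comparison shares the homozygous hearts with the one against wild type.

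**Figure D1:**
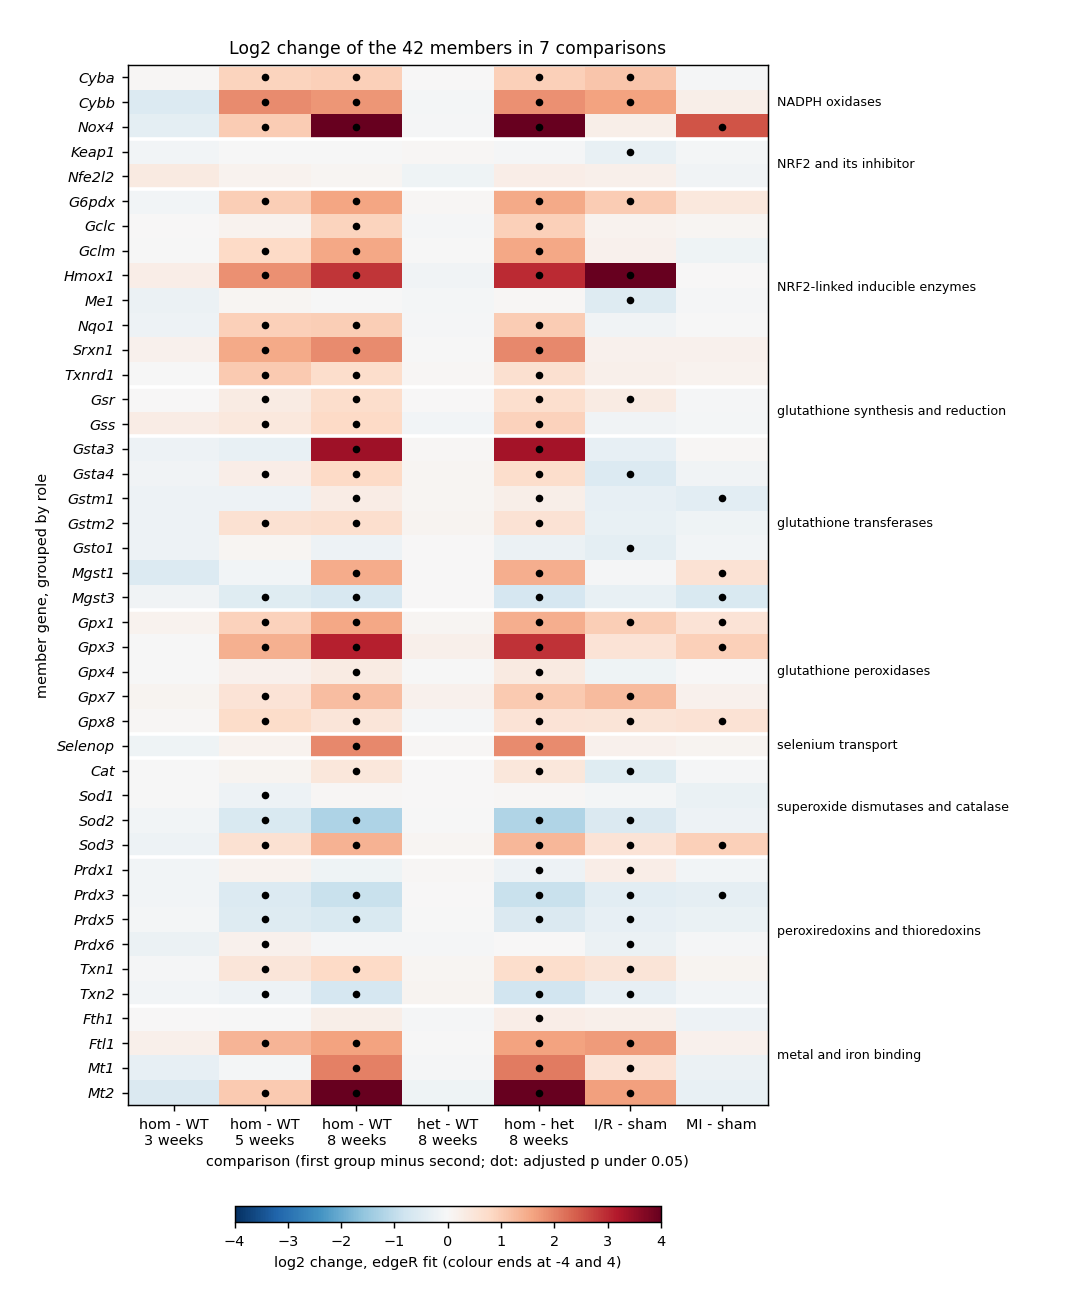
Log2 change of the 42 members (rows, grouped by role) in 7 comparisons (columns, first group minus second), with red for higher and blue for lower in the first group and a dot where the edgeR adjusted p is under 0.05. The columns at 3 weeks and for heterozygous hearts hold no dot, and the homozygous columns at 8 weeks hold 34 and 36.

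The 3 NADPH oxidase members rose in homozygous hearts at 5 and 8 weeks. Nox4, a catalytic subunit that makes mainly hydrogen peroxide and is known for constitutive activity set by its level, was the member with the largest rise at 8 weeks. It stood at 18.6, 45.9, 51.8 and 23.0 CPM in the 4 homozygous hearts, at 0.649, 1.66, 1.35 and 1.41 CPM in heterozygous hearts and at 1.25, 1.77 and 0.892 CPM in the 3 wild type hearts. Every homozygous heart lay above every wild type and heterozygous heart, and replicates 1 and 4 lay below the other 2. The log2 change against wild type was 4.70 ± 0.43 (SE), or 26.0-fold (edgeR adjusted p = 2.51e-06). The gene was near the lower limit of what was counted in wild type hearts, with 13 to 28 reads per library at 8 weeks against 306 to 979 reads in homozygous hearts.

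At 5 weeks Nox4 stood at 3.42, 2.51, 1.67 and 2.47 CPM in homozygous and 1.15, 1.32, 0.913 and 1.54 CPM in wild type hearts (log2 1.02 ± 0.30, edgeR adjusted p = 0.00949). The groups did not overlap, but the size was far below that at 8 weeks. The genotype effect at 8 weeks exceeded that at 5 weeks by 3.69 ± 0.56 on the log2 scale (edgeR interaction, adjusted p = 2.58e-05). After infarction Nox4 was at 14.6, 17.6, 11.2 and 12.6 CPM, against 2.12, 2.11, 3.26 and 2.02 CPM in shams, with no overlap (log2 2.53 ± 0.23, edgeR adjusted p = 3.34e-05). Against the 20-week shams alone this change was 2.34 (adjusted p = 0.00246). After ischemia-reperfusion it was at 2.10, 2.37, 2.96 and 3.81 CPM, a log2 change of 0.24 ± 0.25 that did not pass (edgeR adjusted p = 0.506).

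Cybb and Cyba encode the 2 membrane subunits of the phagocyte NADPH oxidase (gp91phox, or NOX2, and p22phox), and p22phox also partners NOX4. Cybb stood at 61.6, 74.0, 55.7 and 70.7 CPM in homozygous and 17.6, 19.9, 20.4 and 13.8 CPM in 5-week wild type hearts. At 8 weeks it stood at 28.9, 52.2, 41.6 and 49.4 CPM in homozygous and 11.7, 11.7 and 14.3 CPM in wild type hearts. The groups did not overlap at either age, and the log2 changes were 1.88 ± 0.11 and 1.75 ± 0.20 (edgeR adjusted p = 2.42e-10 and 1.25e-05). The interaction of age and genotype did not pass for it (log2 -0.11 ± 0.25, edgeR adjusted p = 0.791).

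After ischemia-reperfusion Cybb was at 32.4, 48.0, 32.2 and 54.7 CPM and after infarction at 16.4, 20.2, 12.2 and 15.3 CPM, against 14.8, 16.5, 9.61 and 14.0 CPM in shams. All 4 hearts after ischemia-reperfusion lay above the shams, while those after infarction overlapped them (log2 1.62 ± 0.20, edgeR adjusted p = 3.65e-05, and log2 0.23 ± 0.21, adjusted p = 0.523). Cyba was likewise higher at 5 and 8 weeks and after ischemia-reperfusion, and did not pass after infarction. Its levels were 44.1, 57.9, 51.2 and 57.7 CPM after ischemia-reperfusion, 22.5, 23.3, 27.9 and 21.5 CPM after infarction and 27.3, 22.9, 21.3 and 26.7 CPM in shams (log2 1.10 ± 0.12, edgeR adjusted p = 8.49e-06, for ischemia-reperfusion). In the mutant set its log2 changes were 0.88 ± 0.089 at 5 weeks and 0.97 ± 0.15 at 8 weeks (edgeR adjusted p = 2.02e-07 and 0.000121).

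Among genes that work with the oxidases, from a list of 17 oxidase partners and other oxidant sources, 4 were higher and 6 lower of 14 tested at 5 weeks, 7 higher and 4 lower of 15 at 8 weeks, 5 higher and 2 lower of 14 after ischemia-reperfusion and 2 higher and 1 lower of 14 after infarction. The shares of all genes higher and lower were 22.3% and 21.4%, 30.8% and 29%, 16.9% and 14.1%, and 6.62% and 4.77% in the same order, so the list lay near the background in several of these counts. Ncf1, the p47phox organiser of the phagocyte oxidase, had log2 changes of 1.80 at 5 weeks, 2.13 at 8 weeks, 2.61 after ischemia-reperfusion and 0.93 after infarction, all of which passed. Maoa, a mitochondrial outer membrane oxidase that makes peroxide from amines, rose at 8 weeks by 1.37 ± 0.21 (edgeR adjusted p = 0.000108). Nos2, the inducible nitric oxide synthase, fell at 8 weeks (log2 -3.38 ± 0.36, edgeR adjusted p = 7.62e-06).

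**Figure D2:**
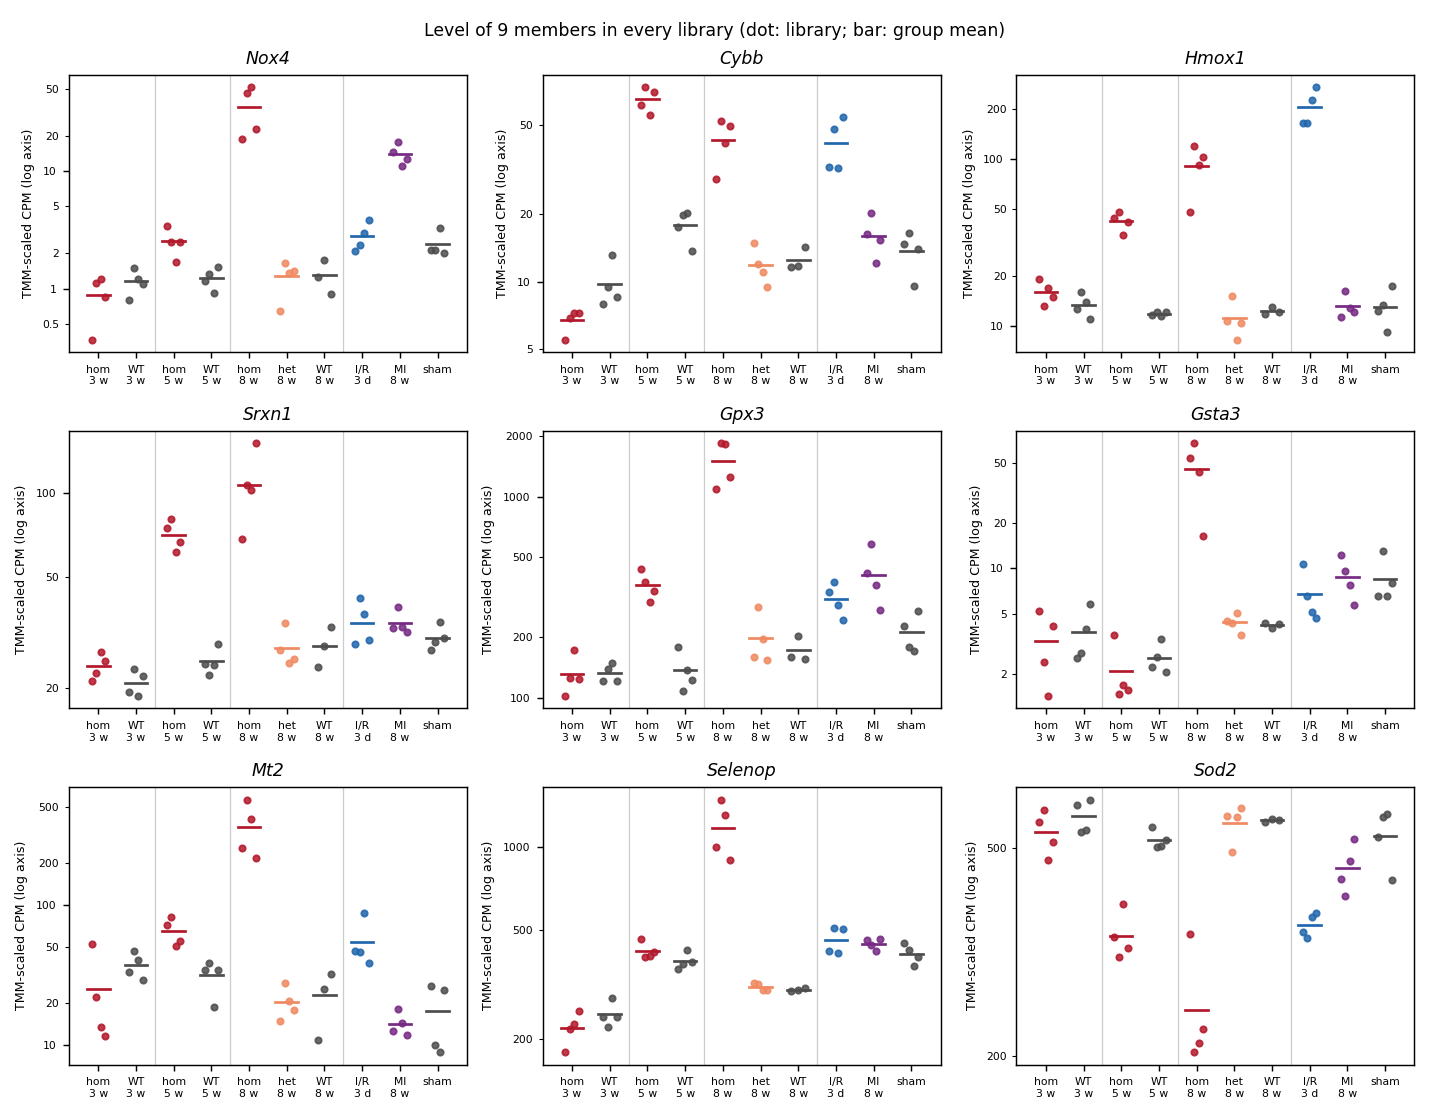
TMM-scaled CPM (log axis) of 9 members in each of the 39 libraries, with a dot per library and a bar at the group mean, for homozygous (hom), heterozygous (het) and wild type (WT) hearts by age in weeks and for ischemia-reperfusion (I/R), infarction (MI) and sham hearts. Nox4 is high in homozygous hearts at 8 weeks and after infarction, Hmox1 is highest after ischemia-reperfusion, Gsta3 and Selenop are high at 8 weeks only, and Sod2 is low in homozygous hearts at 5 and 8 weeks.

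Markers of several other cell types moved with these changes, though not all in the same direction. The 14 macrophage markers summed to 1921 to 2412 CPM in homozygous and 522 to 566 CPM in 5-week wild type hearts, and to 1721 to 2925 and 492 to 619 CPM at 8 weeks. They summed to 1299 to 2034 CPM after ischemia-reperfusion, 572 to 798 CPM after infarction and 367 to 598 CPM in shams. Of the 14, 12 were higher and 2 lower at 5 weeks, 14 higher at 8 weeks, 12 higher after ischemia-reperfusion and 2 higher after infarction, and none was at 0 in any group. The 11 fibroblast markers summed to 7163 to 8363 CPM in homozygous and 3560 to 3647 CPM in 5-week wild type hearts, to 9451 to 13770 and 2922 to 3565 CPM at 8 weeks, and to 5693 to 9123 CPM after ischemia-reperfusion, 4048 to 5693 CPM after infarction and 2799 to 3863 CPM in shams. Of the 11, 10 were higher at 5 weeks, 11 at 8 weeks, 7 with 1 lower after ischemia-reperfusion, and 8 after infarction.

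The 11 cardiomyocyte markers ran the other way and summed to 35870 to 67980 CPM in homozygous and 90630 to 98730 CPM in 8-week wild type hearts. Of these 11, 9 were lower at 5 weeks, 8 at 8 weeks, 10 after ischemia-reperfusion and 1 after infarction. The 8 neutrophil markers, another source of the phagocyte oxidase, summed to 27.4 to 48.1 CPM after ischemia-reperfusion and 3.97 to 8.92 CPM in shams, and to 6.24 to 12.5 CPM in homozygous and 2.10 to 3.03 CPM in 8-week wild type hearts, with Elane at 0 in these 4 groups and Mpo at 0 in both 8-week groups and the shams. The 10 endothelial markers summed to 1131 to 1277 CPM in homozygous and 1880 to 2040 CPM in 5-week wild type hearts. At 8 weeks they summed to 1577 to 2656 and 1711 to 1910 CPM. The 9 smooth muscle and pericyte markers summed to 1175 to 1235 against 1772 to 2005 CPM at 5 weeks. At 8 weeks they summed to 830 to 1088 against 1306 to 1382 CPM. The 8 lymphocyte markers summed to 3.35 to 27.7 against 4.42 to 5.34 CPM at 8 weeks. The part that these cell types have in the values of the members was not tested.

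**Figure D3:**
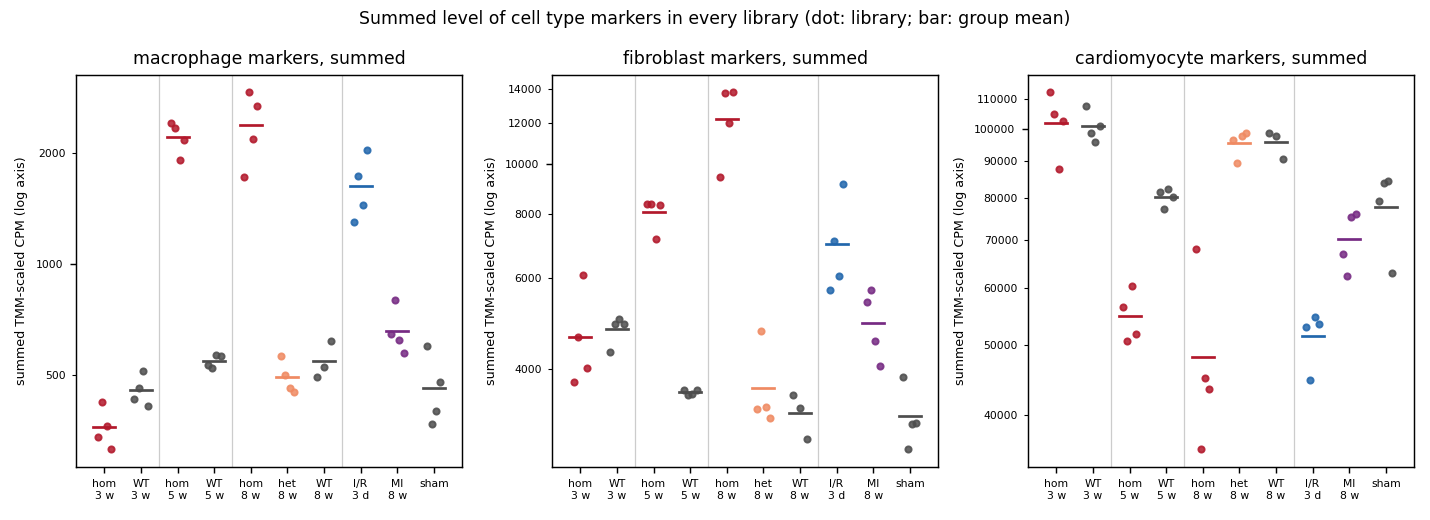
Summed TMM-scaled CPM (log axis) of 14 macrophage, 11 fibroblast and 11 cardiomyocyte markers in each library, with a dot per library and a bar at the group mean. Macrophage sums are high in homozygous hearts at 5 and 8 weeks and after ischemia-reperfusion, fibroblast sums are highest in homozygous hearts at 8 weeks, and cardiomyocyte sums are low in the same groups.

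The mRNAs of NRF2 and of its inhibitor changed little. Nfe2l2 averaged 89.8 ± 16.8 CPM in homozygous (SD, n = 4) and 83.5 ± 4.05 CPM in 8-week wild type hearts (n = 3). By the main fits it passed in none of the 7 comparisons, with log2 changes from -0.18 in heterozygous hearts to 0.37 in homozygous hearts at 3 weeks. Scaling by library totals called Nfe2l2 at 5 weeks, after ischemia-reperfusion and between homozygous and heterozygous hearts. The last was also called with all libraries in 1 fit and without heterozygous replicate 3 or homozygous replicate 1. Keap1 averaged 56.7 ± 1.14 CPM after ischemia-reperfusion and 69.0 ± 0.962 CPM in shams (SD, n = 4 each), a fall (log2 -0.28 ± 0.065, edgeR adjusted p = 0.00389), and passed nowhere else. Its call ended when libraries were scaled by their totals alone (adjusted p = 0.574). Of the 9 tested genes on the list of NRF2 partners and regulators, 4 were higher and 1 lower at 5 weeks, where 22.3% and 21.4% of all genes were. At 8 weeks 3 were higher, near the 30.8% of all genes that were higher. Those 3 were the small MAF factors Mafk and Maff, DNA-binding partners of NRF2, and Sqstm1, whose protein p62 binds KEAP1. Their log2 changes at 8 weeks were 1.76 ± 0.11, 2.50 ± 0.16 and 1.46 ± 0.13, and at 5 weeks 0.69, 1.20 and 0.97, all past the threshold.

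Of 8 enzymes that NRF2 is known to induce, 6 were higher in homozygous hearts at 5 weeks and 7 at 8 weeks and none was lower, where 22.3% and 30.8% of all genes were higher. Gclc and Me1 did not pass at 5 weeks, nor Me1 at 8 weeks. Hmox1 encodes heme oxygenase 1, which breaks down heme to biliverdin, iron and carbon monoxide, and which other factors also control. It stood at 44.7, 48.3, 35.1 and 41.7 CPM in homozygous and 11.7, 12.1, 11.5 and 12.2 CPM in 5-week wild type hearts. At 8 weeks it stood at 48.5, 119.8, 92.0 and 102 CPM in homozygous and 11.8, 13.1 and 12.1 CPM in wild type hearts. There was no overlap at either age, and homozygous replicate 1 at 8 weeks was the lowest of its group. The log2 changes were 1.84 ± 0.10 and 2.85 ± 0.28 (edgeR adjusted p = 8.15e-11 and 3.6e-06), with an interaction of 1.03 ± 0.29 (edgeR adjusted p = 0.0089).

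Hmox1 reached its highest levels after ischemia-reperfusion, at 165, 164, 226 and 269 CPM, while hearts after infarction held 11.4, 16.2, 12.9 and 12.2 CPM and shams 12.3, 13.4, 9.27 and 17.3 CPM. The change after ischemia-reperfusion was 15.8-fold (log2 3.98 ± 0.20, edgeR adjusted p = 3.34e-08), and that after infarction did not pass (log2 0.020 ± 0.20, adjusted p = 0.966). The other enzymes of this set did not share that pattern. G6pdx, which encodes glucose-6-phosphate dehydrogenase, the entry enzyme of the pentose phosphate pathway and a main source of NADPH, was the only other one higher after ischemia-reperfusion. It stood at 16.6, 19.1, 19.7 and 23.3 CPM against 8.79, 8.82, 10.5 and 10.6 CPM in shams, with no overlap (log2 1.02 ± 0.13, edgeR adjusted p = 3.35e-05). Me1, the cytosolic malic enzyme, which also makes NADPH, fell after ischemia-reperfusion to 89.6 ± 12.1 CPM, against 128 ± 15.9 CPM in shams (SD, n = 4 each; log2 -0.51 ± 0.10, edgeR adjusted p = 0.00192), and this call ended against the 12-week shams alone (adjusted p = 0.0526).

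Srxn1 encodes sulfiredoxin, which restores overoxidised peroxiredoxins. It stood at 75.0, 80.8, 61.7 and 66.8 CPM in homozygous and 24.5, 22.4, 24.2 and 28.9 CPM in 5-week wild type hearts. At 8 weeks it stood at 68.5, 107, 102 and 151 CPM in homozygous and 23.8, 28.2 and 33.0 CPM in wild type hearts. The groups were apart at both ages (log2 1.51 ± 0.095 and 1.90 ± 0.23, edgeR adjusted p = 4.09e-10 and 1.67e-05). Srxn1 did not pass in either surgery comparison (log2 0.17 ± 0.12 after ischemia-reperfusion and 0.17 ± 0.12 after infarction).

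Txnrd1, the cytosolic thioredoxin reductase, stood at 126, 149.6, 123 and 129 CPM in homozygous and 60.7, 70.6, 60.7 and 63.2 CPM in 5-week wild type hearts, and at 94.7, 127, 105 and 125 and 65.2, 72.6 and 68.8 CPM at 8 weeks. Its rise was smaller at the later age, with log2 changes of 1.05 ± 0.075 and 0.69 ± 0.10 and an interaction of -0.34 ± 0.12 (edgeR adjusted p = 0.0351). This interaction ended without homozygous replicate 1 at 8 weeks, among others. It also ended with scaling by library totals, all libraries in 1 fit or no filter (adjusted p = 0.0508, 0.0785 and 0.0856). Nqo1, a quinone reductase used as a readout of NRF2, rose by 0.96 ± 0.078 at 5 weeks and 0.99 ± 0.15 at 8 weeks (edgeR adjusted p = 1.06e-08 and 9.64e-05), to 82.2, 113, 145 and 118 CPM in homozygous hearts against 59.1, 54.9 and 56.0 CPM in 8-week wild type hearts.

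The 2 subunits of glutamate-cysteine ligase, which catalyses the rate-limiting step of glutathione synthesis, were both higher at 8 weeks. Gclm, the modifier subunit, rose at 5 weeks by 0.79 ± 0.12 (edgeR adjusted p = 3.69e-05), and at 8 weeks stood at 57.6, 70.4, 63.6 and 69.3 CPM in homozygous and 22.1, 23.7 and 20.3 CPM in wild type hearts (log2 1.54 ± 0.093, edgeR adjusted p = 3.19e-07). Gclc, the catalytic subunit, did not pass at 5 weeks (log2 0.15 ± 0.12, edgeR adjusted p = 0.317) and rose at 8 weeks by 0.90 ± 0.13 (edgeR adjusted p = 7e-05). Both had larger effects at 8 than at 5 weeks (interaction 0.76 ± 0.16 and 0.77 ± 0.17, edgeR adjusted p = 0.000965 and 0.00133). G6pdx behaved likewise in the mutant set, with 24.8, 31.6, 27.9 and 32.4 CPM in homozygous and 9.21, 9.65 and 9.88 CPM in 8-week wild type hearts (log2 1.58 ± 0.11, edgeR adjusted p = 5.84e-07). Me1 was the member of the set that passed at neither age.

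The promoters of these enzymes were read in RefSeq windows of 300 bases (250 before to 50 after the start site, GRCm38.p6), which were at hand for 36 of the 42 members, though not for Hmox1 or Gclc. The core of the antioxidant response element was searched as TGACNNNGC on both strands. It stood in 11 of 47 member windows (23.4%), belonging to 11 members, and in 12.4% of all 32851 windows. The 5 inducible enzymes with a match are shown, each read on the strand where the core begins with TGAC and with the core in capitals, so that the element can be compared between genes that rose and 1 that did not pass. The sixth window of the set, that of Nqo1, held no match in these bases.
Srxn1, chr2:152105532-152105573, minus strand: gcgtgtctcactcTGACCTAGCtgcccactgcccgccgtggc
Gclm, chr3:122245403-122245451, minus strand: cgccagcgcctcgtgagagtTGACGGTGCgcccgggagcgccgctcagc
Txnrd1, chr10:82859094-82859142, minus strand: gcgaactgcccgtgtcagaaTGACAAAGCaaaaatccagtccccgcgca
G6pdx, chrX:74428909-74428957, plus strand: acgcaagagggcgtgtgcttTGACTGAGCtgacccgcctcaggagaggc
Me1, chr9:86695892-86695940, minus strand: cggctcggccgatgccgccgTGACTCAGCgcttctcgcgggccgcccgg
The match in Me1 overlaps an AP-1 site, searched as TGANTCA, in the letters TGACTCAGC, and so do those in Mt2 and Prdx1. Of the 5 genes whose stretches are shown, 4 rose at both 5 and 8 weeks and Me1 at neither. Prdx1 passed at neither age as well. A match is a description of letters and not of a bound site.

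Glutathione synthetase (Gss), which completes glutathione, and glutathione reductase (Gsr), which restores it with NADPH, both rose at 5 and 8 weeks. Gss had log2 changes of 0.41 ± 0.11 at 5 weeks and 0.79 ± 0.12 at 8 weeks, and Gsr of 0.34 ± 0.093 and 0.70 ± 0.12, all past the threshold (edgeR). Gsr also rose after ischemia-reperfusion (0.33 ± 0.074, edgeR adjusted p = 0.00391), a call that ended against the 12-week shams alone (adjusted p = 0.0664). From a wider list of 26 genes of glutathione synthesis, breakdown and conjugation, 5 of 21 tested were higher and 10 lower at 8 weeks, 4 of 19 higher and 8 lower at 5 weeks, 1 of 20 higher and 6 lower after ischemia-reperfusion, and none of 20 higher and 7 lower after infarction. All genes had 30.8% higher and 29% lower at 8 weeks, 22.3% and 21.4% at 5 weeks, 16.9% and 14.1% after ischemia-reperfusion and 6.62% and 4.77% after infarction. Gstk1, a glutathione transferase of mitochondria and peroxisomes, fell in all 4 of these comparisons, with log2 changes of -0.98 at 5 weeks, -2.04 at 8 weeks, -0.52 after ischemia-reperfusion and -0.80 after infarction. Slc3a2 and Slc7a11 encode the 2 chains of the transporter that brings in cystine for glutathione. Slc3a2 rose at 8 weeks by 1.66 ± 0.17 (edgeR adjusted p = 4.55e-06). Slc7a11 passed too (edgeR adjusted p = 2.89e-05), with 15, 84, 43 and 68 reads in homozygous, 1, 3, 2 and 2 reads in heterozygous and 1, 0 and 0 reads in wild type hearts, too few in wild type for a fold change.

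The 7 glutathione transferases split. At 8 weeks Gsta3, Gsta4, Gstm1, Gstm2 and Mgst1 were higher, Mgst3 was lower and Gsto1 did not pass. Gsta3, a cytosolic transferase of the alpha class, stood at 54.0, 67.4, 43.2 and 16.3 CPM in homozygous, 4.49, 4.34, 5.07 and 3.62 CPM in heterozygous and 4.32, 4.04 and 4.25 CPM in 8-week wild type hearts. The lowest homozygous heart, replicate 4, was still above every wild type heart, and the change was 10.5-fold (log2 3.40 ± 0.39, edgeR adjusted p = 1.19e-05). At 5 weeks Gsta3 stood at 3.60, 1.46, 1.67 and 1.55 CPM in homozygous and 2.21, 2.56, 3.38 and 2.05 CPM in wild type hearts and did not pass, and the interaction was 3.72 ± 0.60 (edgeR adjusted p = 5.16e-05). The groups overlapped in both surgery comparisons.

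Mgst1, a transferase of the endoplasmic reticulum and the outer mitochondrial membrane, was higher at 8 weeks as well. It stood at 74.2, 138, 110.1 and 73.3 CPM in homozygous and 30.2, 38.2 and 36.1 CPM in 8-week wild type hearts (log2 1.48 ± 0.22, edgeR adjusted p = 8.12e-05), with no overlap, and did not pass at 5 weeks (log2 -0.12 ± 0.14). The interaction was 1.62 ± 0.26 (edgeR adjusted p = 6.45e-05). It also rose after infarction, to 62.0, 65.3, 85.6 and 77.8 CPM against 47.2, 44.1, 48.7 and 56.2 CPM in shams (log2 0.57 ± 0.12, edgeR adjusted p = 0.00898). Mgst3, a related membrane enzyme, fell to 147 ± 10.2 CPM in homozygous hearts, against 228 ± 32.0 CPM in 8-week wild type hearts (SD, n = 4 and 3; log2 -0.66 ± 0.12, edgeR adjusted p = 0.000378). It fell at 5 weeks (-0.48 ± 0.079) and after infarction too (-0.61 ± 0.16, edgeR adjusted p = 0.0276), the last with a call that ended against the 20-week shams alone (adjusted p = 0.0757) and without any 1 of 4 libraries, infarction replicates 1 and 2, 12-week sham replicate 2 or 20-week sham replicate 1 (adjusted p = 0.0697, 0.0971, 0.0808 and 0.071).

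The mu class transferases moved by less. Gstm2 rose at 5 weeks by 0.60 ± 0.097 and at 8 weeks by 0.67 ± 0.098 (edgeR adjusted p = 5.59e-05 and 7.54e-05), while Gstm1 passed only narrowly at 8 weeks (0.30 ± 0.11, edgeR adjusted p = 0.0245) and its call ended without wild type replicate 3 (adjusted p = 0.139) or homozygous replicate 2 (adjusted p = 0.0678). Gstm1 was lower after infarction (-0.43 ± 0.13, edgeR adjusted p = 0.0438), and that call ended against the 20-week shams alone (adjusted p = 0.106) and in 7 of 8 fits that left 1 library out. Gsta4, which conjugates the lipid aldehyde hydroxynonenal, rose at 8 weeks (0.78 ± 0.14) and fell after ischemia-reperfusion (-0.56 ± 0.11, edgeR adjusted p = 0.00117), as did Gsto1 there (-0.38 ± 0.080, edgeR adjusted p = 0.00213, but 0.124 with scaling by library totals). Genes of the alpha and mu classes lie in families of near-identical copies, so reads could be split between them in the counting.

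All 5 glutathione peroxidases were higher in homozygous hearts at 8 weeks and 4 of them at 5 weeks, where 30.8% and 22.3% of all genes were higher. Gpx3, which encodes the secreted peroxidase of plasma, stood at 1088, 1845, 1834 and 1252 CPM in homozygous, 160.1, 284, 197 and 154 CPM in heterozygous and 160.3, 202 and 156 CPM in 8-week wild type hearts. The homozygous hearts lay far above both other groups (log2 3.10 ± 0.26, or 8.55-fold, edgeR adjusted p = 1.37e-06). At 5 weeks it stood at 438, 379, 299 and 342 CPM in homozygous and 179, 108, 138 and 123 CPM in wild type hearts (log2 1.41 ± 0.13, edgeR adjusted p = 4.74e-08), and the interaction was 1.70 ± 0.29 (edgeR adjusted p = 9.95e-05). After infarction Gpx3 was at 419, 584, 365 and 275 CPM, against 227, 179, 172 and 271 CPM in shams, with every infarcted heart above every sham (log2 0.95 ± 0.20, edgeR adjusted p = 0.00854). In the same 4 infarcted hearts 6 adipocyte markers summed to 73.6, 93.4, 40.8 and 3.03 CPM, against 1.17 to 11.3 CPM in shams, with 3 of 3 tested markers higher. Summed atrial markers were 418, 689, 403 and 14.6 CPM, against 37.4 to 308 CPM in shams, with 0 of 4 called. Both sums order the infarcted hearts as Gpx3 does. In homozygous hearts at 8 weeks, replicates 1 to 4, the adipocyte sums were 6.45, 14.3, 22.4 and 12.1 CPM. They were 2.81 to 4.26 CPM in wild type and 0.0613 to 7.84 CPM in heterozygous hearts of that age. Atrial sums there were 125 to 440 CPM in homozygous and 72.4 to 227 CPM in wild type hearts. The part of both lists in the values of Gpx3 was not tested. After ischemia-reperfusion, at 337, 379, 288 and 243 CPM, Gpx3 lay at the threshold and was not called (log2 0.55 ± 0.20, edgeR adjusted p = 0.05), while 7 of 8 alternative settings, DESeq2 among them, called it higher. The setting that did not call it was the 12-week shams alone. Of the fits that left 1 library out, only those without ischemia-reperfusion replicate 4 or 12-week sham replicate 2 called it. Ischemia-reperfusion replicate 4, at 243 CPM, lay below 12-week sham replicate 2, at 271 CPM.

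Gpx1, a peroxidase of cytosol and mitochondria, was the peroxidase that passed in both surgery comparisons beside Gpx8. It stood at 96.3, 122, 114 and 122 CPM after ischemia-reperfusion and 76.9, 100.2, 81.9 and 73.8 CPM after infarction, against 66.4, 48.6, 52.0 and 61.7 CPM in shams (log2 0.99 ± 0.12 and 0.54 ± 0.12, edgeR adjusted p = 3e-05 and 0.0111). At 8 weeks it stood at 176, 222, 174 and 222 CPM in homozygous and 58.8, 64.2 and 78.8 CPM in wild type hearts (log2 1.54 ± 0.14, edgeR adjusted p = 2.26e-06). Neither comparison showed overlap with its controls.

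Gpx7 and Gpx8 act in the endoplasmic reticulum, where they use peroxide to support protein folding. Gpx7 rose in homozygous hearts at 8 weeks, to 13.5, 18.5, 18.2 and 19.3 CPM against 7.56, 7.07 and 7.13 CPM in wild type hearts (log2 1.24 ± 0.16, edgeR adjusted p = 2.85e-05), and after ischemia-reperfusion, to 14.5, 20.8, 18.3 and 19.3 CPM against 8.98, 7.08, 6.52 and 7.43 CPM in shams (log2 1.28 ± 0.15, edgeR adjusted p = 1.71e-05). After infarction it did not pass (log2 0.16 ± 0.15). Its rise at 5 weeks was smaller (log2 0.55, edgeR adjusted p = 0.0136). That call ended without homozygous replicate 2 or wild type replicate 3 of that age (adjusted p = 0.0706 and 0.0512). Gpx8 rose in all 4 of the comparisons discussed, by 0.74 at 5 weeks, 0.49 at 8 weeks, 0.51 after ischemia-reperfusion and 0.57 after infarction, and its call at 8 weeks ended without wild type replicate 2 (adjusted p = 0.0543). After infarction it stood at 30.7, 33.7, 28.5 and 23.2 CPM, against 20.9, 17.9, 21.2 and 17.8 CPM in shams, without overlap (edgeR adjusted p = 0.00635). Gpx4, which reduces lipid peroxides in membranes, rose at 8 weeks by 0.34 ± 0.084 (edgeR adjusted p = 0.0034) and passed in neither surgery comparison.

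Selenop encodes selenoprotein P, the plasma carrier of selenium, which glutathione peroxidases and thioredoxin reductases use as selenocysteine. It stood at 995, 1485, 1303 and 894 CPM in homozygous, 321, 318, 301 and 301 CPM in heterozygous and 298, 302 and 307 CPM in 8-week wild type hearts. The wild type and heterozygous hearts lay within a narrow band and the homozygous hearts all lay above it (log2 1.92 ± 0.15, edgeR adjusted p = 1.06e-06). At 5 weeks it stood at 464, 399, 401 and 413 CPM in homozygous and 359, 377, 421 and 380.2 CPM in wild type hearts, which overlapped (log2 0.13 ± 0.071, edgeR adjusted p = 0.155), and the interaction was 1.81 ± 0.17 (edgeR adjusted p = 9.48e-08). Of a list of 18 other selenoproteins and selenocysteine enzymes, 7 of 17 tested were higher and 5 lower at 8 weeks, and 7 higher and 2 lower at 5 weeks, where 30.8% and 29% of all genes were called at 8 weeks and 22.3% and 21.4% at 5 weeks. The selenoproteins of the endoplasmic reticulum Selenof, Selenos and Selenom were among those higher at 8 weeks, by 1.16, 1.03 and 1.38.

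Sod2, Prdx3 and Txn2, which act in the mitochondrial matrix, were lower at 8 weeks, while Gpx1 and Mgst1, found in mitochondria among other places, were higher. Sod2, the manganese superoxide dismutase of the matrix, stood at 341, 203, 211 and 225 CPM in homozygous, 577, 492, 573 and 596 CPM in heterozygous and 561, 569 and 567 CPM in 8-week wild type hearts. Replicate 1 was the highest of the homozygous hearts but still below every heart of the other groups. The change was 2.35-fold lower (log2 -1.23 ± 0.16, edgeR adjusted p = 2.91e-05). At 5 weeks it stood at 338, 309, 390.3 and 321 CPM in homozygous and 549.8, 502, 504 and 519 CPM in wild type hearts (log2 -0.61 ± 0.074, edgeR adjusted p = 2.07e-06), with a stronger fall at 8 weeks (interaction -0.61 ± 0.17, edgeR adjusted p = 0.00846). After ischemia-reperfusion it stood at 346, 336, 369 and 376 CPM and after infarction at 435, 404, 472 and 519.8 CPM, against 526, 572, 580.1 and 435 CPM in shams. The first was below all shams and passed (log2 -0.57 ± 0.10, edgeR adjusted p = 0.000732), and the second overlapped them (log2 -0.21 ± 0.10, adjusted p = 0.212).

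Sod1, the copper-zinc enzyme of the cytosol, did not pass at 8 weeks (log2 0.058 ± 0.075, edgeR adjusted p = 0.524) and passed narrowly as lower at 5 weeks (log2 -0.20 ± 0.078, edgeR adjusted p = 0.0486), with the sign reversed to 0.008 when libraries were scaled by their totals. The call at 5 weeks held in only 1 of 8 fits that left 1 library out (adjusted p up to 0.179). It also ended with all libraries in 1 fit (adjusted p = 0.192). Sod3, the secreted enzyme that binds to the extracellular matrix, rose. It stood at 162, 123, 139 and 181 CPM in homozygous and 50.7, 57.4 and 62.1 CPM in 8-week wild type hearts (log2 1.39 ± 0.18, edgeR adjusted p = 2.56e-05), and at 73.6, 111, 85.8 and 75.8 CPM after infarction against 47.2, 44.8, 51.4 and 36.2 CPM in shams (log2 0.94 ± 0.15, edgeR adjusted p = 0.00118). All homozygous and all infarcted hearts lay above their controls. It also rose at 5 weeks (0.62 ± 0.079) and after ischemia-reperfusion (0.54 ± 0.15, edgeR adjusted p = 0.0115).

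Prdx3, the peroxiredoxin of the matrix, stood at 210.3, 153, 157 and 157 CPM in homozygous and 300.1, 312 and 307 CPM in 8-week wild type hearts (log2 -0.88 ± 0.11, edgeR adjusted p = 2.92e-05). By the main fits it was the one peroxiredoxin called lower in all 4 comparisons. Its other log2 changes were -0.54 ± 0.058 at 5 weeks, -0.43 ± 0.088 after ischemia-reperfusion and -0.35 ± 0.088 after infarction. DESeq2, all libraries in 1 fit and the fit without infarction replicate 3 called Prdx5 after infarction too. The call of Prdx3 after infarction ended against the 20-week shams alone (adjusted p = 0.0505). It also ended without infarction replicate 2 or 20-week sham replicate 1 (adjusted p = 0.0669 and 0.0579). The call of Prdx3 after ischemia-reperfusion ended with scaling by library totals (adjusted p = 0.0534). Prdx1, its main cytosolic relative, did not pass at 5 or 8 weeks (log2 0.13 ± 0.060 and -0.16 ± 0.079) and was higher after ischemia-reperfusion (0.26 ± 0.073, edgeR adjusted p = 0.0143), a call that ended against the 12-week shams alone (adjusted p = 0.077).

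Txn2, the matrix thioredoxin that serves Prdx3, stood at 179, 127, 131 and 150.5 CPM in homozygous and 229, 244 and 214 CPM in 8-week wild type hearts (log2 -0.67 ± 0.11, edgeR adjusted p = 0.000278). Txn1, the cytosolic thioredoxin, moved the other way, to 105 ± 14.3 CPM in homozygous against 59.4 ± 2.20 CPM in wild type hearts (SD, n = 4 and 3; log2 0.79 ± 0.10, edgeR adjusted p = 3.79e-05). After ischemia-reperfusion Txn2 was lower (-0.34 ± 0.091, edgeR adjusted p = 0.0116) and Txn1 higher (0.52 ± 0.10, adjusted p = 0.00152), and neither passed after infarction. The fall of Txn2 at 5 weeks (-0.20 ± 0.067, edgeR adjusted p = 0.0225) reversed to 0.007 with scaling by library totals and ended without homozygous replicate 2 or 4 or wild type replicate 1 or 3, and its call after ischemia-reperfusion ended with it (adjusted p = 0.363) and against the 12-week shams alone (adjusted p = 0.103).

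Prdx5, found in mitochondria, peroxisomes and cytosol, fell at 5 weeks (-0.50 ± 0.081), at 8 weeks (-0.59 ± 0.11, edgeR adjusted p = 0.000404) and after ischemia-reperfusion (-0.34 ± 0.092, edgeR adjusted p = 0.0108), the last with a call that ended against the 12-week shams alone (adjusted p = 0.0811) and with scaling by library totals (adjusted p = 0.301). Prdx6, a cytosolic enzyme with phospholipase activity, changed by 0.17 at 5 weeks, -0.043 at 8 weeks and -0.22 after ischemia-reperfusion, and the last reversed to 0.009 with scaling by library totals. The calls of Prdx6 at 5 weeks and after ischemia-reperfusion (edgeR adjusted p = 0.0361 and 0.0436) held in 3 and 2 of 8 fits that left 1 library out. Catalase, the peroxisomal enzyme encoded by Cat, rose at 8 weeks by 0.46 ± 0.088 (edgeR adjusted p = 0.000612) and was lower after ischemia-reperfusion (-0.49 ± 0.12, edgeR adjusted p = 0.00725), where its call ended against the 12-week shams alone (adjusted p = 0.107) and with scaling by library totals (adjusted p = 0.0864).

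**Figure D4:**
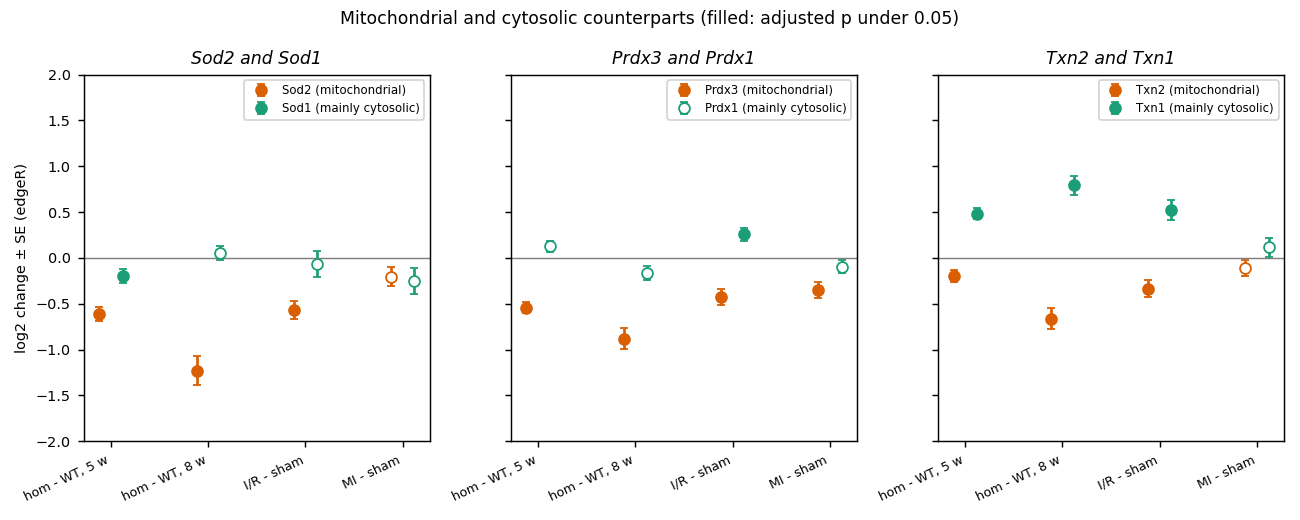
Log2 change with its standard error (edgeR) of a mitochondrial enzyme (orange) and its mainly cytosolic counterpart (green) in homozygous against wild type hearts at 5 and 8 weeks and in ischemia-reperfusion (I/R) and infarction (MI) against sham hearts, with filled circles where the adjusted p is under 0.05. Sod2, Prdx3 and Txn2 lie below 0 in each of the 4 comparisons, and at 8 weeks Sod1 and Prdx1 lie near 0 and Txn1 above it.

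The falls of the matrix enzymes stood beside the fall of the summed cardiomyocyte markers given above and, in these hearts, beside the lower share of counts from mitochondrial DNA. Homozygous replicate 1 at 8 weeks, with the highest mitochondrial share and the highest cardiomyocyte sum of its group, also had the highest Sod2, Prdx3 and Txn2 of its group. The part of cell composition in these falls was not tested. On the list of 23 further thioredoxin, peroxiredoxin, glutaredoxin and repair genes, 9 were higher and 7 lower at 8 weeks, 7 higher and 8 lower at 5 weeks, 2 higher and 6 lower after ischemia-reperfusion and 0 higher and 2 lower after infarction, beside the shares of all genes given for the lists above. Prdx4, the peroxiredoxin of the endoplasmic reticulum, rose at 8 weeks (1.17 ± 0.12) and Msrb2, the mitochondrial methionine sulfoxide reductase, fell (-1.76 ± 0.22). Of 16 genes of NADPH supply, 6 were higher and 7 lower at 8 weeks (all genes 30.8% and 29%). Pgd, the next NADPH-making enzyme after G6pdx, rose (0.94 ± 0.14), while Nnt, the transhydrogenase of the inner mitochondrial membrane, which carries a known deletion in the C57BL/6J strain, was counted lower (-1.29 ± 0.16), as was Rpia (-1.13 ± 0.12), which follows in the pentose phosphate pathway.

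The metallothioneins Mt1 and Mt2, small cysteine-rich proteins that bind zinc and copper and also take up oxidants, were both higher in homozygous hearts at 8 weeks. Mt2 stood at 256, 568, 409 and 218 CPM in homozygous, 14.9, 27.7, 20.8 and 17.8 CPM in heterozygous and 10.8, 25.2 and 32.4 CPM in 8-week wild type hearts. It was 15.7-fold higher (log2 3.97 ± 0.42, edgeR adjusted p = 6.73e-06), with the 4 homozygous hearts apart from all others and spread among themselves. Mt1 stood at 405, 676, 518 and 309 CPM in homozygous and 91.5, 126 and 127 CPM in 8-week wild type hearts (log2 2.02 ± 0.22, edgeR adjusted p = 8.73e-06).

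At 5 weeks Mt2 stood at 71.9, 82.0, 50.9 and 55.0 CPM in homozygous and 34.4, 38.4, 18.5 and 34.5 CPM in wild type hearts (log2 1.05 ± 0.17, edgeR adjusted p = 4.74e-05), while Mt1 did not pass (log2 -0.082 ± 0.11, adjusted p = 0.562). Both effects were larger at 8 weeks (interaction 2.94 ± 0.56 and 2.12 ± 0.27, edgeR adjusted p = 0.000291 and 3.15e-06). After ischemia-reperfusion Mt2 stood at 46.6, 45.9, 87.1 and 38.4 CPM and after infarction at 12.6, 18.1, 14.3 and 11.8 CPM, against 26.4, 10.1, 8.93 and 24.5 CPM in shams. The hearts after ischemia-reperfusion lay above the shams (log2 1.64 ± 0.32, edgeR adjusted p = 0.0013), the infarcted ones among them. The 12-week shams held 26.4 and 24.5 CPM and the 20-week shams 10.1 and 8.93 CPM. Over 8 alternative settings, age-matched shams among them, the Mt2 call after ischemia-reperfusion was kept. Its log2 change there ran from 1.09 to 1.84 (adjusted p up to 0.0204). Mt1 passed after ischemia-reperfusion with overlap (log2 0.55 ± 0.16, edgeR adjusted p = 0.0186), a call that ended against the 12-week shams alone (adjusted p = 0.274), and without replicate 3 of ischemia-reperfusion (adjusted p = 0.0701) or either 20-week sham (adjusted p = 0.0656 and 0.0636).

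Mt2 (chr8:94172664-94173568) and Mt1 (chr8:94179082-94180327, both GRCm38, plus strand) are neighbours. Their promoter windows from RefSeq (GRCm38.p6, 250 bases before to 50 after the start site) are shown because the pair moved together at 8 weeks and because metal response elements, bound by the zinc-sensing factor MTF1, are known to control them. The core was searched on both strands as TGCACNC and TGCGCNC, and matches are in capitals.
Mt2, chr8:94172368-94172667, plus strand: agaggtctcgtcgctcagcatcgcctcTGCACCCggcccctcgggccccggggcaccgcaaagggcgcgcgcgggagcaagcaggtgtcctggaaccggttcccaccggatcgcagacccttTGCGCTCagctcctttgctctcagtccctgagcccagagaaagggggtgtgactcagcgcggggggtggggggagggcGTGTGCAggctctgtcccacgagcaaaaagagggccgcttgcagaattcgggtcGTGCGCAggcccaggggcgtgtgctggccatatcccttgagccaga
Mt1, chr8:94178839-94179138, plus strand: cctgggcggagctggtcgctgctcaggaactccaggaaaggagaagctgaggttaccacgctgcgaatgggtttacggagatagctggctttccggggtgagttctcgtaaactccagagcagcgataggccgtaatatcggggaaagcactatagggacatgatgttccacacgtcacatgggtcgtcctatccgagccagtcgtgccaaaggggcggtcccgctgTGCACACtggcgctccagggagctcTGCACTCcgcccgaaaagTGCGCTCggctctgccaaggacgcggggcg
Mt2 held 4 matches and Mt1 held 3. Windows with 3 or more matches made up 1.97% of all 32851 windows, and 25.7% held at least 1. Of the other members, 6 held a match, among them Gclm and Nox4. Nothing about binding follows from the letters.

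Ftl1, the light chain of the iron store ferritin, rose in homozygous hearts and after ischemia-reperfusion. It stood at 279.5, 429.6, 352 and 449 CPM in homozygous and 116, 122 and 129 CPM in 8-week wild type hearts (log2 1.60 ± 0.16, edgeR adjusted p = 3.8e-06). At 5 weeks it stood at 226, 204, 177 and 189 CPM in homozygous and 66.2, 79.8, 74.6 and 89.8 CPM in wild type hearts (log2 1.36 ± 0.090, edgeR adjusted p = 8.42e-10). Both pairs were without overlap. After ischemia-reperfusion it stood at 256, 339, 254 and 329 CPM and after infarction at 112, 104, 99.1 and 93.2 CPM, against 90.7, 78.2, 80.7 and 112 CPM in shams (log2 1.70 ± 0.13, edgeR adjusted p = 5.76e-07, and log2 0.17 ± 0.13, adjusted p = 0.411). Fth1, the heavy chain with ferroxidase activity, passed in none of these 4 comparisons (log2 -0.029 at 5 weeks, 0.23 at 8 weeks, 0.21 after ischemia-reperfusion and -0.22 after infarction). At 8 weeks it stood at 1634 to 2183 CPM in homozygous and 1551 to 1601 CPM in wild type hearts, without overlap. DESeq2, scaling by library totals, all libraries in 1 fit and the fit without homozygous replicate 1 called it there. Scaling by library totals also called it at 5 weeks and, as did DESeq2, after ischemia-reperfusion. Ferritin mRNAs have many processed copies in the genome, which could take some of their reads. On a list of 21 heme, iron and metal genes, 5 of 18 tested were higher and 7 lower at 8 weeks (all genes 30.8% and 29%), with the plasma proteins Hp and Cp higher (4.21 ± 0.47 and 1.62 ± 0.21).

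The list of 18 other NRF2 target and detoxification genes had 13 of 17 tested higher and 3 lower at 5 weeks and 12 higher and 4 lower at 8 weeks, against the background shares given above. After ischemia-reperfusion 5 were higher and 4 lower, and after infarction 3 were higher. Cbr3, a carbonyl reductase, and Esd, an esterase that completes formaldehyde removal by glutathione, rose at 8 weeks by 2.17 ± 0.19 and 1.63 ± 0.17. Nqo2, a quinone reductase related to Nqo1, was lower (log2 -1.27 ± 0.13, edgeR adjusted p = 5.04e-06).

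At 3 weeks the members moved little between homozygous and wild type hearts. The edgeR test called 0 members and 0 of all genes, with 7 of 42 members and 1515 genes at an unadjusted p under 0.05, while DESeq2 called 60 genes higher and 58 lower and 1 member, Mgst1, lower. Mgst1 stood at 12.0, 11.8, 8.78 and 12.5 CPM in homozygous and 17.2, 14.6, 16.1 and 16.6 CPM in wild type hearts, without overlap (log2 -0.53 ± 0.12, edgeR adjusted p = 0.238). Cybb stood at 5.53, 6.92, 7.24 and 7.23 CPM in homozygous and 7.98, 9.44, 13.1 and 8.59 CPM in wild type hearts and did not pass (log2 -0.55 ± 0.17, edgeR adjusted p = 0.317). That difference ran opposite to the one at 5 and 8 weeks.

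No member passed between heterozygous and wild type hearts at 8 weeks. The log2 changes lay between -0.18 and 0.20 over the 42 members, with a median of 0.011, and the edgeR test called 0 members and 0 of 14314 genes (0 members and 326 genes at an unadjusted p under 0.05), as did DESeq2. Their difference from homozygous hearts was tested directly. It passed for the same 29 members that were higher against wild type, and for Fth1 besides, and for the same 5 that were lower, with Prdx1 added. The calls of Gstm1, Fth1 and Prdx1 against heterozygous hearts held in 1, 3 and 4 of 8 fits that left 1 library out, and Prdx1 moved to -0.007 (adjusted p = 0.948) with scaling by library totals.

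In wild type hearts alone, 10 members were higher and 0 lower at 8 than at 3 weeks by the edgeR test (17 of 42 at an unadjusted p under 0.05), against 4.87% higher and 3.67% lower of the 14819 genes in that fit. Mgst1 and Nqo1 led, with log2 changes of 1.11 ± 0.20 and 0.92 ± 0.12 (edgeR adjusted p = 0.000512 and 2.09e-05), and Gstm2, Gpx4, Gstm1, Cat, Me1, Gsto1, Prdx3 and Prdx6 rose by 0.29 to 0.68. Without wild type replicate 2 at 8 weeks 6 members were called higher. DESeq2 called 1 member lower with age, Gpx7 (-0.58 ± 0.19 by edgeR). The call of Prdx3 held in 2 of 7 fits that left 1 library out (adjusted p up to 0.0987) and ended without the filter (adjusted p = 0.0561). The genotype effect itself differed between 8 and 5 weeks for 23 members, higher for 18 and lower for 5, where 14.5% and 15% of all genes were called. The 5 that were lower were Txnrd1, Sod2, Prdx1, Prdx3 and Txn2, and the count fell to 2 without homozygous replicate 3 at 8 weeks or homozygous replicate 2 at 5 weeks. The 5-week libraries carry sample names in a style of their own in the labels, and whether they were handled apart is not stated, so age and handling cannot be told apart for this difference.

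Per kilobase of merged exons, the 42 members spanned a wide range in wild type hearts at 8 weeks (n = 3). Merged exons cover every annotated transcript, from 10008 bases for Sod2 to 1051 for Txn1, for example. They can be longer than the transcript that is mainly made, which lowers the value, so the order of genes is approximate. Fth1 was highest at 453 ± 7.66 CPM per kilobase (mean ± SD). Mgst3 at 207 ± 29.1 and Prdx3 at 207 ± 4.06 followed and overlapped, and Prdx5 at 168 ± 0.697 and Gpx4 at 159.5 ± 6.34 came next. Nox4 was lowest at 0.154 ± 0.0519 CPM per kilobase, below Gsta3 at 0.968 ± 0.0338 and Cybb at 2.16 ± 0.256, without overlap between these 3. In homozygous hearts at 8 weeks Gpx3 averaged 830 ± 216 and Selenop 411 ± 96.1 CPM per kilobase, against 95.3 ± 14.2 and 106 ± 1.65 in wild type hearts, while Nox4 averaged 4.11 ± 1.94.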

How the data were processed

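RNA was measured in 39 left ventricles. The labels' protocols name Trizol for RNA extraction and Illumina's stranded TruSeq mRNA kit for the libraries. STAR 2.7.3a on mm10 and featureCounts (Subread 2.0.0) are listed per the submitters' processing notes. What the authors deposited is 1 integer read count for each gene and library. Which annotation and strand setting was used is not stated in these sources, so overlapping, antisense and near-identical genes are uncertain. All columns were matched to a label. Symbols, positions and exon lengths came from GENCODE vM21 (GRCm38), and unnamed IDs took 0.133% of counts.

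Groups were taken from the labels. Counts were scaled with TMM, filtered with filterByExpr and tested with edgeR 4.0.16 in R 4.3.3 (quasi-likelihood test, Benjamini-Hochberg over all genes tested, threshold 0.05). Samples entered a fit by age, with the surgery samples in another, and the interaction and the wild type comparison the 27 libraries of the mutant set. Printed CPM carry TMM factors of all 39 libraries, since the share of mitochondrial counts differs between groups and plain CPM then part from the fitted changes. Standard errors are the absolute log2 change over the square root of F. Among 53 replicate pairs none was identical, with a chi-square per gene of 4.03 to 97.4. Sample names in the labels hold numbers, but whether these number animals is not stated. The p-values therefore cover the spread between libraries, which may be technical. The code was tested on simulated counts. Alternatives were DESeq2 1.42.0, RLE and library size scaling, no filter, all libraries in 1 fit, only the groups compared, age-matched shams, a replicate block and each library left out. Leaving libraries out of the last 2 comparisons was added after seeing the data.

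The members and the lists were chosen with earlier results of these data known. Values in every library were fixed for members past the threshold with an absolute log2 change of at least 1 at 5 or 8 weeks, and for at most the 6 with the smallest p among members past it in heterozygous hearts, at 3 weeks or after each surgery. Other such values, as at 3 weeks, were chosen after they were seen. Genes that are no members are the up to 3 of a list with the smallest p at 8 weeks, or cell type markers. A planned count of selenocysteine in member proteins was not carried out, since no protein sequences were used here.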

Additional observations from a re-analysis of the deposited data

Results flagged for a closer look

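In some groups 1 library lay far from the rest for a member, by Dixon's test on TMM-scaled CPM. This held for 22 of 378 member and group pairs tested (5.82%), where chance gives about 1 in 20. Among homozygous hearts at 8 weeks, Prdx3 was highest in replicate 1 at 210 CPM, Prdx5 was highest in replicate 1 at 298 CPM, Sod2 was highest in replicate 1 at 341 CPM and Txn1 was lowest in replicate 1 at 83.3 CPM. Among homozygous hearts at 5 weeks, Gpx8 was lowest in replicate 3 at 35.9 CPM and Gsta3 was highest in replicate 1 at 3.60 CPM. Among homozygous hearts at 3 weeks, Gclm was highest in replicate 2 at 28.0 CPM, Gss was lowest in replicate 2 at 15.6 CPM and Gsta4 was lowest in replicate 3 at 36.2 CPM. Among heterozygous hearts at 8 weeks, Gpx8 was highest in replicate 2 at 28.8 CPM, Mt1 was lowest in replicate 1 at 99.5 CPM and Sod3 was highest in replicate 2 at 80.3 CPM. Among hearts after ischemia-reperfusion, Mt2 was highest in replicate 3 at 87.1 CPM and Sod3 was highest in replicate 3 at 82.1 CPM. Among hearts after infarction, Gstm2 was highest in replicate 3 at 93.9 CPM. Among wild type hearts at 5 weeks, Gss was lowest in replicate 3 at 13.2 CPM, Mt1 was lowest in replicate 3 at 112 CPM and Sod1 was highest in replicate 3 at 189 CPM. Among wild type hearts at 3 weeks, Fth1 was highest in replicate 1 at 1580 CPM and Mt1 was highest in replicate 2 at 201 CPM. Among shams, Gstm2 was lowest in the 12-week sham replicate 1 at 73.4 CPM and Nox4 was highest in the 20-week sham replicate 2 at 3.26 CPM. In homozygous hearts at 8 weeks replicate 1 thus stood apart for Prdx3, Prdx5, Sod2 and Txn1, and the 34 members called at 8 weeks were all called without it.

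The homozygous effect differed between 8 and 5 weeks for 23 members by a test of the difference itself (edgeR, adjusted p under 0.05). In log2 units, the effect at 8 weeks was above that at 5 weeks for Gsta3 (3.72), Nox4 (3.69), Mt2 (2.94), Mt1 (2.12), Selenop (1.81), Gpx3 (1.70), Mgst1 (1.62), Hmox1 (1.03), Sod3 (0.79), Gclc (0.77), Gclm (0.76), Gpx7 (0.70), Gpx1 (0.63), G6pdx (0.61), Gsta4 (0.54), Gstm1 (0.51), Gsr (0.38) and Cat (0.37). It was below it for Sod2 (-0.61), Txn2 (-0.46), Txnrd1 (-0.34), Prdx3 (-0.33) and Prdx1 (-0.28). These calls held in 4 of 15 fits that left 1 library out for Gpx7 and for Gsr (adjusted p up to 0.072 and 0.123), in 10 of 15 for Cat and for Prdx1, in 7 of 15 for Prdx3 and for Txnrd1 and in 14 of 15 for Gstm1. Scaling by library totals ended those of Gpx7, Gsr, Cat and Txnrd1 (adjusted p = 0.076, 0.156, 0.0732 and 0.0508). All libraries in 1 fit ended those of Txnrd1 and Cat (adjusted p = 0.0785 and 0.0544). Leaving out the filter ended those of Txnrd1, Gsr, Prdx1 and Prdx3 (adjusted p = 0.0856, 0.0664, 0.125 and 0.0974).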

How the results depend on the processing

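Of the member calls, the direction reversed in 3 cases, all with scaling by library totals: Sod1 at 5 weeks (0.008), Txn2 at 5 weeks (0.007) and Prdx6 after ischemia-reperfusion (0.009). That scaling moved the median of all genes to 0.206 at 5 weeks, 0.187 at 8 weeks, 0.205 after ischemia-reperfusion and 0.109 after infarction, and it gave 5388 genes higher and 1411 lower at 5 weeks, 4189 higher and 431 lower after ischemia-reperfusion (3 members lower), and 1406 higher and 317 lower after infarction. With the age-matched shams, 1456 genes were higher and 680 lower after ischemia-reperfusion (5 members lower), and 564 higher and 377 lower after infarction (0 members lower). At 3 weeks, the genes higher and lower were 29 and 11 with all libraries in the fit, 60 and 58 with DESeq2 (1 member lower) and 18 and 7 without the filter. Without the filter, 2 members were lower in the interaction, and with all libraries in the fit or DESeq2 1 member was lower with age in wild type.

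Leaving out each library in turn gave 0 to 2 genes higher and 0 to 2 lower at 3 weeks, 426 to 940 higher and 237 to 630 lower after infarction with 0 to 3 members lower, 2 to 5 members lower in the interaction, and with age in wild type 364 to 686 genes higher, 250 to 505 lower and 6 to 10 members higher. The lowest infarction counts came without infarction replicate 2, and the counts also moved by over 1.5 times without infarction replicate 1 or 20-week sham replicate 1. Those with age moved likewise without wild type replicates 1 to 3 at 8 weeks. After group means were subtracted gene by gene, same-numbered libraries of compared groups correlated between -0.159 and 0.233. Differently numbered libraries were not correlated for reference, so whether replicate numbers pair the samples is not settled by these values. With a replicate block 1 member was lower after infarction, and the block ended the calls of Fth1 against heterozygous hearts, of Prdx1, Prdx6 and Mt1 after ischemia-reperfusion and of Gstm1 and Mgst3 after infarction. Depth limits Nox4 most, with 10 to 28 reads in each wild type library of the mutant set.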
